A study of Mus musculus with 2 samples.

Results

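Endothelial cells line the blood and lymph vessels of the mammary fat pad, and 10 genes that mark them were followed here in RNA of sorted mammary basal cells. The genes were *Pecam1*, *Cdh5*, *Kdr*, *Flt1*, *Tek*, *Tie1*, *Eng*, *Emcn*, *Vwf* and *Cldn5*. They were found by symbol in the deposited count table, where all 10 were among 49492 listed genes. All 10 also passed the filter of at least 20 counts summed over both libraries, which 17356 genes of the table passed. The list is of interest because some markers of mammary stem cells, such as *Procr*, are also made by endothelial cells.

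The data held 1 library from control mice (Ctrl basal) and 1 (CL basal) from mice given clodronate liposomes (CL), both labelled day 7. These liposomes carry a drug that kills the macrophages which engulf them. By the study's methods the mice were adult wild-type females of 8 to 10 weeks, and CL was injected into the peritoneum every 2 days for 3 doses. The sample label gives no treatment for the controls, while the series text names saline. The strain and the number of mice behind these libraries were not given in the sources used here, which name C57/B6 mice for other experiments of the study. The basal cells were sorted as CD24+ CD29hi cells after removal of cells that carried CD45, CD31 or TER119, the surface markers of leukocytes, endothelial cells and red blood cells. CD31 is the protein made from *Pecam1*, so the sort was directed against the product of a gene of this list.

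The genes cover most of what makes an endothelial cell recognisable. PECAM1, VE-cadherin (*Cdh5*) and claudin-5 (*Cldn5*) sit at the contacts between neighbouring endothelial cells. VEGFR2 (*Kdr*) and VEGFR1 (*Flt1*) bind vascular endothelial growth factors, and VEGFR2 carries most of the growth signal while VEGFR1 binds VEGF-A more tightly and limits it. TIE2 (*Tek*) is the receptor for angiopoietins and TIE1 (*Tie1*) is its partner. Endoglin (*Eng*) is a co-receptor for ligands of the TGF-beta family, endomucin (*Emcn*) is a sialomucin of the cell surface, and von Willebrand factor (*Vwf*) is a secreted protein that helps platelets adhere. Several of these genes are not strictly endothelial, since *Vwf* and *Pecam1* are made by megakaryocytes, and *Pecam1*, *Eng* and *Flt1* by some myeloid cells.

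Transcription of endothelial genes depends on ETS family factors such as ERG and FLI1, which bind DNA around the core GGAA. For 7 of the 10 genes a promoter was at hand in RefSeq on GRCm38.p6 (*Eng*, *Emcn*, *Tek*, *Tie1*, *Kdr*, *Flt1* and *Cldn5*). The 250 bases before the RefSeq start of transcription are shown for 5 of them. They are the promoter with the most matches to GGAAG (*Tie1*, chr4:118489850-118490099, minus strand), the VEGF receptor pair (*Kdr*, chr5:75978456-75978705, minus strand, and *Flt1*, chr5:147726012-147726261, minus strand), a promoter with no match (*Cldn5*, chr16:18776597-18776846, plus strand), and that of the only gene of the list whose interval lay above 0 (*Emcn*, chr3:137340828-137341077, plus strand). Each is written 5′ to 3′ on the strand of its gene, and capitals mark GGAAG or its reverse complement CTTCC.
Tie1: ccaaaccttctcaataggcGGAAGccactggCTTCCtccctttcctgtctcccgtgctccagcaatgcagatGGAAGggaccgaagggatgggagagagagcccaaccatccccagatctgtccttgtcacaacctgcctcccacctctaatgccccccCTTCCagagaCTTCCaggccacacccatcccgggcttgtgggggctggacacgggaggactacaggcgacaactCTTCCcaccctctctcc
Kdr: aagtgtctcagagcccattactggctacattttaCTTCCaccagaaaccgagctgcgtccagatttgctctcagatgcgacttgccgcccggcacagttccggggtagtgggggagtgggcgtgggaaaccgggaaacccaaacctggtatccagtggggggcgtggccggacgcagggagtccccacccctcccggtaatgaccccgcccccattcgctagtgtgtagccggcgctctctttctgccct
Flt1: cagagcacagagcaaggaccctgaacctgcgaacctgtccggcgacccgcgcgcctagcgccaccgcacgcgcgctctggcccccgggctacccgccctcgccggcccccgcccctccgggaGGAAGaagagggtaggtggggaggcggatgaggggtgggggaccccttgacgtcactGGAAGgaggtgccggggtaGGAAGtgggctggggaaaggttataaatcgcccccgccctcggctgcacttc
Cldn5: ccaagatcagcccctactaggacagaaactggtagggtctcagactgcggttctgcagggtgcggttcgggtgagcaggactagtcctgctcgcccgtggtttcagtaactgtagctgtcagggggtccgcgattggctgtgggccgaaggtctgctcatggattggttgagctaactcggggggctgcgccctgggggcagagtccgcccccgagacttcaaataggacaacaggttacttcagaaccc
Emcn: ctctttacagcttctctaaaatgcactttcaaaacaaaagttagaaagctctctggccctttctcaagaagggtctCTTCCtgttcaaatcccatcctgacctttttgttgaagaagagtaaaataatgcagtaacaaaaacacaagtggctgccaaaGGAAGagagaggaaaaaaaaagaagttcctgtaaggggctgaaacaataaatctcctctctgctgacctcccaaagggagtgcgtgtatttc
The motif GGAAG, counted on both strands, occurred 6 times before *Tie1*, 3 times before *Flt1*, 2 times before *Emcn* and *Eng*, 1 time before *Kdr*, and 0 times before *Cldn5* and *Tek*. It was thus found before 5 of the 7 genes, while 64.1% of 32851 RefSeq promoters of the same length held it. The shorter GGAA, which lies within it, was found in 93.4% of all promoters and before 6 of the 7, *Cldn5* being the exception. The RefSeq start of *Tie1* lies inside the gene as the count table places it, so 212 of the 250 bases of its window, with 4 of its 6 matches, fall within the counted gene. For *Emcn* 11 bases and for *Kdr* 3 bases do so, with no match among them. A match is only a run of letters in this window. The GC content of these 7 windows ran from 40.8% (*Emcn*) to 70.4% (*Flt1*).

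RNA of all 10 endothelial markers was present in both libraries of the sorted basal fraction. Levels between genes are given as counts per kilobase of exon per 1000000 scaled counts, where scaling was by the trimmed mean of M-values (TMM). *Cdh5* had the highest level, 40.1 in Ctrl basal and 32.0 in CL basal. *Cldn5* followed at 25.5 and 20.8, and *Pecam1* at 23.0 and 17.8. *Eng* stood at 11.4 and 10.1. *Kdr* (4.08 and 3.21) and *Flt1* (3.99 and 3.25) were close to each other. *Tie1* had 2.69 and 2.27, *Tek* 2.34 and 2.25, *Vwf* 1.99 and 2.04, and *Emcn* was lowest at 0.742 and 1.03. In rank by level, *Cdh5* was gene 1329 in Ctrl basal and gene 1631 in CL basal, and *Emcn* was gene 13120 and gene 11796. For neighbours in this order, the exact binomial 95% interval of the ratio of their levels held 1 for *Kdr* over *Flt1* in Ctrl basal (1.02, 0.955 to 1.09) and for *Flt1* over *Kdr* in CL basal (1.01, 0.937 to 1.09), so the order of these 2 was not resolved. In CL basal the same held for *Tie1* over *Tek* (1.01, 0.88 to 1.16) and *Tek* over *Vwf* (1.10, 0.985 to 1.24). In Ctrl basal *Tie1* over *Tek* (1.15, 1.01 to 1.31) and *Tek* over *Vwf* (1.18, 1.05 to 1.31) lay above 1, but with all counts halved, as mates of a read pair may have been counted separately, these intervals held 1 too. The 3 genes of cell contacts, *Cdh5*, *Cldn5* and *Pecam1*, made up 76.5% of the summed level in Ctrl basal and 74.5% in CL basal. These levels assume even coverage of the whole exon length, which was not tested for these libraries.

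**Figure D1:**
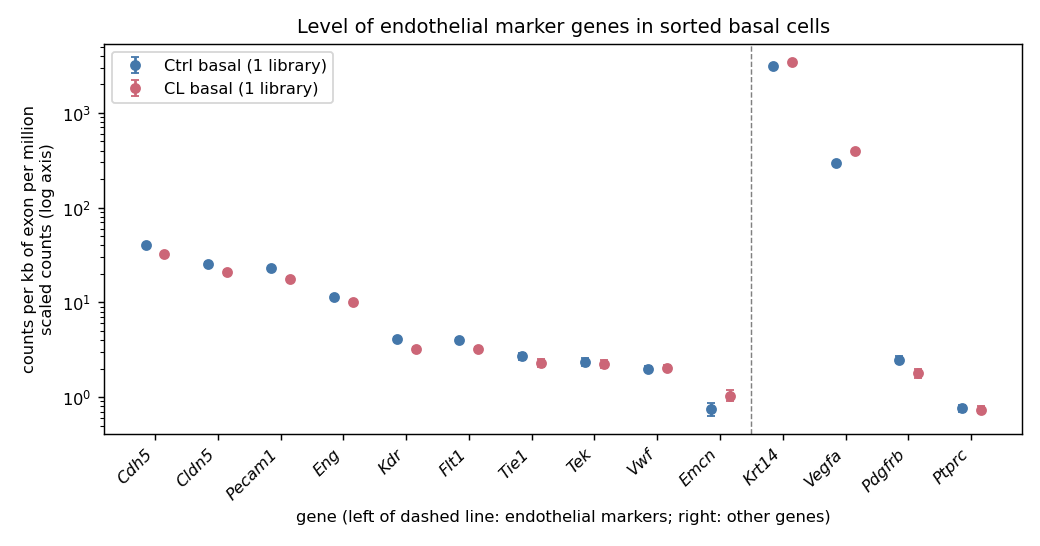
Level of each endothelial marker gene on a log axis, in counts per kilobase of exon per 1000000 scaled counts, in Ctrl basal (blue) and CL basal (red), with *Krt14*, *Vegfa*, *Pdgfrb* (a pericyte gene) and *Ptprc* to the right of the dashed line. Points are single libraries and bars are exact Poisson 95% intervals of the count. *Cdh5* was highest of the markers (40.1 in Ctrl basal) and *Emcn* lowest (0.742), and 8 of the 10 markers had a lower point in CL basal.

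Against the genes of the sorted cells themselves these levels were low. *Krt14*, a keratin of basal cells, had 3125 in Ctrl basal and 3445 in CL basal on the same scale, 136 and 193 times the level of *Pecam1*. The summed level of the 10 markers was 1.502% of the summed level of 10 basal genes (such as *Krt5*, *Krt14*, *Acta2* and *Myh11*) in Ctrl basal and 1.16% in CL basal. *Ptprc*, which encodes CD45, one of the other surface proteins sorted away, had a level of 0.764 in Ctrl basal and 0.740 in CL basal, and the level of *Pecam1* was 30.1 and 24.1 times as high. These ratios rest on an exon length of 18313 bases for *Ptprc* against 6228 for *Pecam1*, and by reads alone *Pecam1* had 10.2 and 8.19 times the counts of *Ptprc*. Which cells the reads of the endothelial genes came from was not measured, since bulk RNA carries no record of its cell.

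Between the libraries, the endothelial markers as a set were lower in CL basal. The 10 genes held 20907 counts in Ctrl basal and 17243 in CL basal, out of 37846008 and 38962512 counts in all, which is 552 and 443 counts per 1000000. The log2 fold change of the sum, CL basal over Ctrl basal, was -0.28 (95% interval -0.31 to -0.25). Unless another kind is named, intervals are exact binomial on the share of reads in CL basal. They cover counting error only, and with 1 library per group no difference has a replicate check. Of the 10 genes 8 were lower and 2 were higher, and the median log2 fold change was -0.27, beside -0.01 over all 17356 tested genes, of which 51.7% were lower. In bulk RNA, fewer endothelial cells in the sorted sample and less RNA of these genes per cell cannot be told apart.

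None of the 10 genes was past a 2-fold change in either direction. Among all tested genes 4.78% were lower and 2.07% higher past 2-fold, and among the 8767 genes in the same range of summed counts (369 to 11635) 0.844% and 0.183% were. At a threshold of 1.5-fold the count of marker genes was also 0, where 11.7% of all tested genes were lower and 6.34% higher, and 3.92% and 1.73% of those in the range. For 7 genes the whole 95% interval lay below 0, for 1 (*Emcn*) it lay above 0, and for 2 (*Tek* and *Vwf*) it held 0. With all counts halved, 6 lay below 0, since that of *Tie1* then held 0 (-0.51 to 0.03), and *Emcn* still lay above (0.04 to 0.91). Such intervals are narrow at these depths, and 25.3% of all tested genes had one below 0 and 25.3% one above 0. Within the range of counts of the markers 27.8% lay below and 31.2% above, and 48.5% of those genes were lower.

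The genes of endothelial contacts were among the lowest of the list. *Pecam1* (chromosome 11, 106654217 to 106750628, GRCm38) had 5503 counts in Ctrl basal and 4266 in CL basal, and its fold change on the log2 scale was -0.37 (-0.43 to -0.31). *Cdh5* (chromosome 8, 104101625 to 104144511) had 6462 and 5173 counts, and its fold change on the log2 scale was -0.32 (-0.38 to -0.27). *Cldn5* (chromosome 16, 18776847 to 18778260) had 1385 and 1128 counts, and its fold change on the log2 scale was -0.30 (-0.41 to -0.18). CL basal was thus the lower library for each of the 3, at 0.774, 0.799 and 0.813 times the scaled counts of Ctrl basal. Among genes with summed counts within a factor of 2 of their own, 4.16% were as low as *Pecam1*, 4.46% as low as *Cdh5* and 10.5% as low as *Cldn5*. The ratio of *Pecam1* to *Cdh5* reads was 0.852 in Ctrl basal and 0.825 in CL basal, a log2 difference of -0.05 (95% interval -0.13 to 0.03, exact conditional), so at this depth no shift between these 2 genes was detectable.

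The VEGF receptors had almost the same fold change. *Kdr* (chromosome 5, 75932827 to 75978458) had 1413 counts in Ctrl basal and 1114 in CL basal, and its fold change on the log2 scale was -0.35 (-0.46 to -0.23). *Flt1* (chromosome 5, 147561604 to 147726011) had 2067 and 1685 counts, and its fold change on the log2 scale was -0.30 (-0.39 to -0.20). Both genes were lower in CL basal, and their ratio to each other moved by -0.05 on the log2 scale (-0.20 to 0.10). Of genes with like counts, 8.11% were as low as *Kdr* and 8.59% as low as *Flt1*.

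The angiopoietin receptor pair and endoglin were closer to 0. *Tie1* (chromosome 4, 118471191 to 118490061) had 507 counts in Ctrl basal and 430 in CL basal, and its fold change on the log2 scale was -0.24 (-0.43 to -0.05). *Tek* (chromosome 4, 94739289 to 94874976) had 423 and 408 counts, and its fold change on the log2 scale was -0.05 (-0.25 to 0.14). At this depth a difference in *Tek* was not detectable. The ratio of *Tek* to *Tie1* differed by 0.19 on the log2 scale between the libraries (-0.09 to 0.46), an interval that also holds 0. Intervals for a ratio of 2 genes or sums are exact conditional ones. *Eng* (chromosome 2, 32646595 to 32682669) had 1766 and 1564 counts, and its fold change on the log2 scale was -0.18 (-0.28 to -0.08). It shares 61 exonic bases with *Fpgs*, and of the 10 genes it was the only one with exonic overlap.

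*Vwf* and *Emcn* departed from the rest. *Vwf* (chromosome 6, 125546774 to 125686679) had 1227 counts in Ctrl basal and 1260 in CL basal, and its fold change on the log2 scale was 0.04 (-0.08 to 0.15), an interval that holds 0. *Emcn* (chromosome 3, 137341067 to 137432185), the marker with the fewest counts, had 154 and 215, and its fold change on the log2 scale was 0.47 (0.17 to 0.79). Of genes with like counts 7.12% were as high as *Emcn*. Set against the summed other 9 markers, *Emcn* was higher in CL basal by 0.77 on the log2 scale (0.46 to 1.08), *Vwf* by 0.34 (0.22 to 0.46), *Tek* by 0.23 (0.03 to 0.43) and *Eng* by 0.11 (0.01 to 0.22). With counts halved the intervals of *Tek* (-0.05 to 0.52) and *Eng* (-0.04 to 0.26) held 0, while those of *Emcn* (0.32 to 1.204) and *Vwf* (0.17 to 0.51) did not. For *Pecam1* the value against the others was -0.12 (-0.19 to -0.05). For *Cdh5*, *Kdr*, *Flt1*, *Tie1* and *Cldn5* this interval held 0. The 10 genes therefore did not share a single ratio between the libraries to within counting error, where reads are taken as independent. *Emcn* made up 0.737% of the summed marker reads in Ctrl basal (95% exact interval 0.625 to 0.862%) and 1.25% in CL basal (1.09 to 1.42%). *Vwf* made up 5.87% (5.55 to 6.20%) and 7.31% (6.92 to 7.71%).

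**Figure D2:**
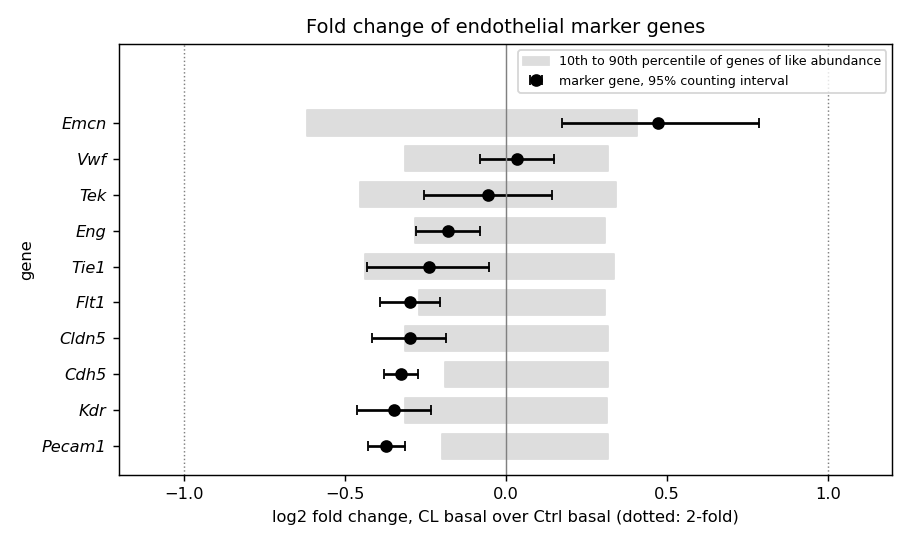
Log2 fold change of each endothelial marker gene, CL basal over Ctrl basal, with exact binomial 95% counting intervals (black) over the 10th to 90th percentile of genes with summed counts within a factor of 2 (grey bars). *Pecam1* (-0.37), *Kdr* (-0.35), *Cdh5* (-0.32) and *Flt1* (-0.30) lie left of their grey bars, *Emcn* (0.47) lies right of its own, the other 5 lie within theirs, and no gene reaches the dotted 2-fold lines.

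**Figure D3:**
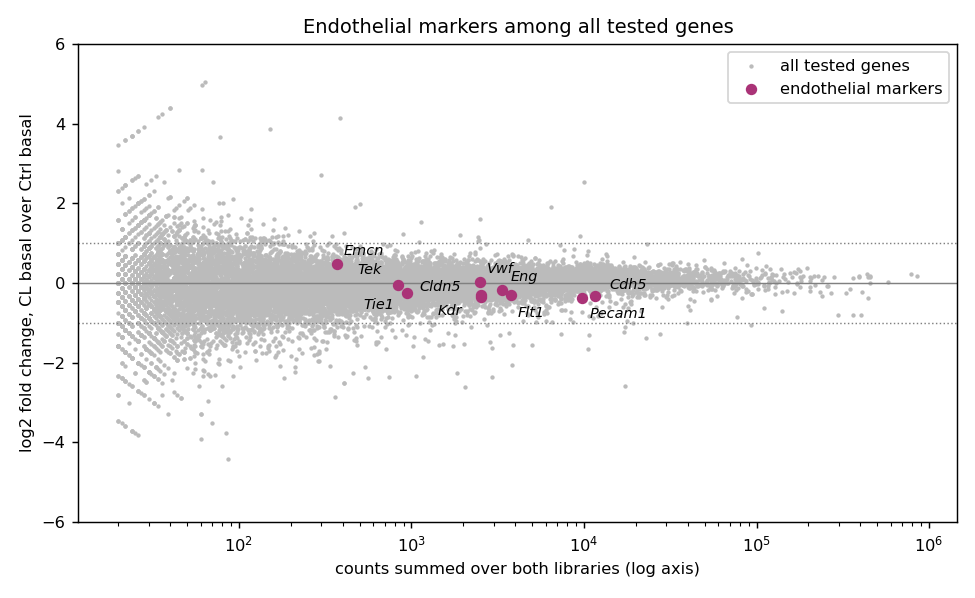
Log2 fold change, CL basal over Ctrl basal, against counts summed over both libraries (log axis) for 17356 tested genes (grey) and the endothelial markers (purple). The markers span 369 to 11635 summed counts, where the spread of all genes is narrower than at low counts, and all lie between the dotted 2-fold lines.

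Ligands and partners of these receptors differed in direction. *Vegfa*, the main ligand of VEGFR2, was abundant, with 48572 counts in Ctrl basal and 65218 in CL basal and a value of 0.42 on the log2 scale (0.41 to 0.44). Its level was 296 and 396 counts per kilobase per 1000000. By reads alone there were 34.4 of *Vegfa* for each of *Kdr* in Ctrl basal and 58.5 in CL basal. Their exon lengths are 4285 and 9030 bases, and by level *Vegfa* stood at 72.4 and 123 times *Kdr*. *Nrp2*, a co-receptor for VEGF and semaphorins, had 2916 and 2750 counts (-0.09, -0.16 to -0.01). Of 8 VEGF ligands and receptor partners 7 were tested, with 0 past 2-fold and a median of -0.09. *Angpt2*, the angiopoietin made chiefly by endothelial cells, had 2353 counts in Ctrl basal and 1868 in CL basal, and its fold change on the log2 scale was -0.34 (-0.42 to -0.25). *Angpt1*, the TIE2 agonist that perivascular cells make, had 74 and 32 counts, and its fold change on the log2 scale was -1.16 (-1.86 to -0.60). It was past 2-fold, but it shares 283 exonic bases with *Gm17473*, and 5.05% of genes with like counts were as low. *Ptprb*, the phosphatase that restrains TIE2, was higher, with 992 and 1271 counts (0.35, 0.23 to 0.48), and the ratio of *Tek* to *Ptprb* differed by -0.41 on the log2 scale (-0.64 to -0.18). Of 5 angiopoietin pathway genes 4 were tested, and 1 was lower past 2-fold, where 4.78% of all tested genes were. The median of this list was -0.02 (0.02 with upper-quartile scaling).

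Among 12 genes of BMP9 and endoglin signalling 10 were tested, 8 were higher and 2 lower, 0 were past 2-fold, and the median was 0.20. Of the 10, 5 had an interval above 0 and 1 below 0, where 25.3% of all tested genes lay on each side. *Bmpr2*, a receptor of this pathway, had 5629 counts in Ctrl basal and 6562 in CL basal (0.22, 0.17 to 0.27), and the inhibitor *Smad7* had 4460 and 5849 (0.39, 0.33 to 0.44). Most of these genes are also used by epithelial cells. The gene of the endothelial receptor of this pathway, *Acvrl1*, chosen after its value was seen, had 770 and 678 counts (-0.19, -0.34 to -0.04), next to -0.18 for *Eng*, and shares 127 exonic bases with *Gm16031*.

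Further genes of endothelial cells had a median close to that of the markers, while their summed counts differed less between the libraries. All 24 of a second endothelial list were tested, with 0 past 2-fold, 21 lower and 3 higher, a median of -0.27, 15 intervals below 0 and 2 above 0, where 51.7% of all tested genes were lower and 25.3% had an interval below 0. Their summed counts were 72166 in Ctrl basal and 67690 in CL basal, of which *Tm4sf1*, which epithelial cells also make, held 49559 and 47634. The log2 fold change of this sum was -0.10 (-0.11 to -0.08), and the summed markers against it differed by -0.19 (-0.22 to -0.15). Without *Tm4sf1* the log2 fold change of the sum was -0.18 (-0.20 to -0.15). *Selp*, the adhesion molecule P-selectin, had 4703 and 5007 counts (0.09, 0.03 to 0.14) and shares exonic bases with *Gm16587* and *Gm16548*. The other higher genes were *Sele* with 1172 and 1609 counts (0.45, 0.34 to 0.56) and *Myct1* with 64 and 76 (0.24, -0.25 to 0.75). Among the 21 lower genes *Plvap*, chosen after its value was seen, had 4167 and 3216 counts (-0.38, -0.44 to -0.31). Endothelial transcription factors were split, with 12 of 12 tested, 8 lower and 4 higher, 4 intervals below 0 and 4 above 0, and a median of -0.07 (0.01 with the trend on mean expression removed). *Lyl1* was the only one past 2-fold, higher with 17 and 39 counts (1.11, 0.34 to 2.11). Of all tested genes 2.07% were higher past 2-fold, and 5.38% of genes with like counts were as high as *Lyl1*. *Klf4* (0.25, 15924 and 18914 counts) and *Ets1* (0.13, 6196 and 6816 counts), both also made by epithelial cells, had the most reads. Of the ETS factors named above, *Erg* had 2176 and 1502 counts (-0.54, -0.63 to -0.44) and *Fli1* 355 and 315 (-0.17, -0.40 to 0.05). Of 3 related endothelial factors, *Sox7* had 396 and 396 counts (-0.003, -0.21 to 0.20), *Sox17*, which shares 804 exonic bases with *Gm37587*, had 263 and 156 (-0.75, -1.05 to -0.47), and *Sox18* had 24 and 50 (0.997, 0.33 to 1.82). These 5 factors were chosen after their values were seen.

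The stem cell marker *Procr* was lower by more than the endothelial markers. It had 8360 counts in Ctrl basal and 5568 in CL basal, and its fold change on the log2 scale was -0.59 (-0.64 to -0.54). There were 0.400 reads of *Procr* per read of the 10 endothelial markers in Ctrl basal and 0.323 in CL basal, a log2 difference of -0.31 (-0.37 to -0.25). Its level was 4.66 times that of *Pecam1* in Ctrl basal and 4.002 times in CL basal. How many of the *Procr* reads came from endothelial cells was not tested. *Bcl11b*, the marker of quiescent stem cells, had 386 and 667 counts, and its value against the summed endothelial markers was 1.07 (0.88 to 1.25).

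Markers of other cells that the sort could hold are given beside these values. Their part in the result was not tested. Pericytes, the cells that wrap small vessels, were represented by 11 genes, of which 10 were tested, with a median of -0.54. Of the 10, 8 had an interval below 0 and 0 were past 2-fold. Among all tested genes 25.3% had an interval below 0 and 4.78% were lower past 2-fold. The summed level of the pericyte genes was 36.5 in Ctrl basal and 25.4 in CL basal, with *Higd1b* at 7 counts in Ctrl basal and 0 in CL basal. *Rgs5* had 2281 and 1635 counts (-0.48, -0.58 to -0.39) and *Notch3* 1308 and 803 (-0.71, -0.84 to -0.58), the latter with 488 exonic bases shared with *Gm17276*. By summed counts the endothelial markers were higher relative to the pericyte genes in CL basal by 0.29 on the log2 scale (0.23 to 0.36). Lymphatic endothelial genes were all tested (7 of 7), with a summed level of 240 and 225. Their median was 0.03, which turned to -0.01 with scaling by library totals and to -0.05 with the trend on mean expression removed. Of the 7, 3 had an interval below 0 and 2 above 0, where 25.3% of all tested genes lay on each side. *Lyve1* had 4701 and 4891 counts (0.05, -0.004 to 0.11). *Pdpn*, which basal cells also make and whose value is the list median, had 9185 and 9401 (0.03, -0.01 to 0.07). The intervals below 0 were those of *Prox1* (-0.21, -0.40 to -0.02), *Mmrn1* (-0.38, -0.50 to -0.25) and *Ccl21a* (-0.55, -0.66 to -0.45). Those above 0 were of *Flt4* (0.20, 0.04 to 0.37) and *Reln* (0.21, 0.10 to 0.32).

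Of 10 platelet and megakaryocyte genes 6 were tested, with a median of 0.05 that turned to -0.10 with no filter and to -0.23 with at least 100 counts. Their summed counts differed by -0.42 on the log2 scale (-0.52 to -0.33), with a summed level of 10.8 in Ctrl basal and 8.91 in CL basal. *Ppbp* was at 0 counts in both libraries, *Gp6* had 1 and 0 and *Pf4* had 12 and 18, while *Gp5* had 18 and 21, *Gp1ba* 65 and 50 and *Gp1bb* 55 and 78. *Vwf* had 1227 and 1260 counts. *Itga2b* had 799 and 747 counts (-0.10, -0.25 to 0.05) and *Itgb3*, which endothelial cells also make, 1121 and 630 (-0.83, -0.98 to -0.69). Of 10 haematopoietic genes 7 were tested, with a median of -0.08 and a summed level of 19.97 and 14.01. Of the 7, 3 had an interval below 0 and 0 above 0, where 25.3% of all tested genes lay on each side. *Ptprc* had 537 and 521 counts (-0.05, -0.22 to 0.13), *Cd14* had 748 and 468 (-0.68, -0.85 to -0.51). Among macrophage genes *Mrc1* had 168 and 86 counts (-0.95, -1.36 to -0.59), *Cd68* 233 and 185 (-0.33, -0.62 to -0.05), *Csf1r* 64 and 89 (0.46, -0.01 to 0.96) and *Adgre1*, which was not tested, 7 and 10. The 7 fibroblast genes had a median of -0.49 and a summed level of 54.6 and 38.7. *Lum* was lower past 2-fold (128 and 34 counts, -1.86, -2.51 to -1.36), as were 4.78% of all tested genes. *Col3a1* was at 0.10 and *Col1a2* at -0.23. By summed counts (9798 and 8012 for the fibroblast genes), the endothelial markers differed by 0.01 relative to the fibroblast genes (-0.04 to 0.06). By summed level CL basal stood at 0.709 times Ctrl basal for the fibroblast genes and 0.817 times for the endothelial markers.

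**Figure D4:**
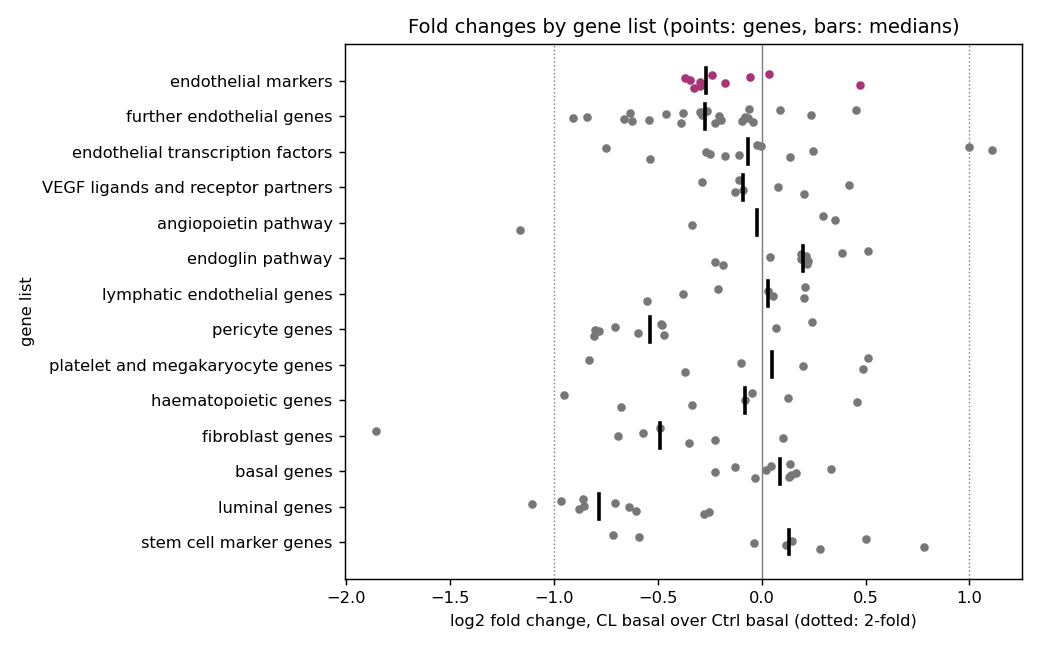
Log2 fold change, CL basal over Ctrl basal, of the tested genes of each list (points) with the list median (bar), the endothelial markers in purple. The median of the markers (-0.27) equals that of the further endothelial genes to 2 decimals, lies above that of the pericyte genes (-0.54) and below that of the lymphatic endothelial genes (0.03, or -0.01 with scaling by library totals and -0.05 with the trend removed).

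For the sorted population itself, the 10 basal genes had 758644 counts in Ctrl basal and 796674 in CL basal. Their median was 0.09 (0.006 with the trend on mean expression removed). Of the 10, 7 had an interval above 0 and 3 below 0, where 25.3% of all tested genes lay on each side. *Krt14* was at 0.14 (0.13 to 0.15) and *Myh11* at 0.02 (0.01 to 0.03), and together they held most of the basal counts. The 3 lower genes were *Krt5* at -0.23 (-0.25 to -0.21), *Oxtr* at -0.13 (-0.21 to -0.05) and *Acta2* at -0.03 (-0.05 to -0.01). Relative to the summed basal genes, the log2 fold change of the summed endothelial markers was -0.35 (-0.38 to -0.32). The 10 luminal genes had a median of -0.78 with 10 of 10 lower, where 51.7% of all tested genes were lower. Among the 10 were *Krt8* (-0.71), *Krt18* (-0.86) and *Krt19* (-1.11). The stem cell list of 8 genes had a median of 0.13, with *Itgb1*, which encodes CD29, at -0.04 and *Itga6* at 0.12.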

How the data were processed

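Total RNA of sorted basal cells was sequenced on an Illumina HiSeq X 10, with 1 library per group. The authors deposited raw read counts per gene, summed over exons in the format of featureCounts, on GRCm38 (mm10) per the labels. Aligner, annotation release, strand setting and filters were not given in the sources used here. Ratio columns of the table, the authors' own comparison, were not used. Of the 10 markers, 9 had the same start and end in GENCODE M21. Counts of 1 to 20 were even more often than odd (68.7% and 67.9% in CL and Ctrl basal), so mates of a pair may have been counted separately and intervals may be too narrow. Intervals of single markers, of their values against the others and of neighbouring levels were recomputed with counts halved, a choice made after seeing the data.

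Library totals were 37846008 (Ctrl basal) and 38962512 (CL basal). After TMM scaling 3 counts, taken as the limit for a gene at 0, equal 0.0782 and 0.078 per 1000000 scaled counts. Scaling was by TMM in edgeR 4.0.16 (R 4.3.3) over the whole table, with a prior count of 2 in log2 fold changes of single genes and none in those of sums. A gene was tested if both libraries summed to 20 or more, and called past 2-fold. No model with replicate spread can be fitted, so no p-value is given. Intervals were exact (Clopper-Pearson for shares, conditional for ratios of 2 ratios; scipy 1.17.1, Python 3.11.15). The calculation was tested on simulated data. Named genes were the 10 markers and, from each other list, genes past 2-fold and the 2 with the most counts. Others were chosen after their values were seen. Markers and lists were chosen with earlier results of these data known.

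Alternatives were library totals, DESeq2 1.42.0 size factors or upper quartile factors in place of TMM, a prior of 0.5 or 5, other filters (none, or 100 counts), halved counts, a thinned deeper library, removal of a smooth trend on mean expression, protein-coding genes alone and a 1.5-fold threshold.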

Additional observations from a re-analysis of the deposited data

How the results depend on the processing

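The counts of endothelial markers past the threshold, 0 lower and 0 higher, stayed at 0 under every alternative run, 1.5-fold included. The median log2 fold change of the markers ran from -0.31 to -0.23. That of their summed reads left its counting interval at -0.32 with scaling by library totals, -0.24 with the upper quartile, -0.33 without the trend on mean expression and, on leaving out each marker in turn, at the highest value of -0.25. The construction of a scaling shifts all genes alike, and the median of all tested genes moved with it from -0.04 to 0.03. Of 110 values of single markers, 108 stayed within their intervals. The other 2 were *Pecam1* (-0.44) and *Cdh5* (-0.40) without the trend on mean expression, where the cause was not tested. *Vwf* changed sign, to -0.004 (library totals), and its interval holds 0. *Emcn* ran from 0.43 to 0.55. Of 143 medians of the other lists, 141 moved by less than 0.115, the median half-width of the markers' intervals. The other 2 were those of the platelet and megakaryocyte list, -0.10 with no filter and -0.23 with at least 100 counts, where other genes are tested. In all 6 of the 143 had the other sign, these 2 among them. The remaining 4 were the lymphatic list at -0.01 (library totals) and -0.05 (trend removed), the angiopoietin list at 0.02 (upper quartile) and the transcription factors at 0.01 (trend removed). No paired analysis was possible because a group consisted of 1 library only. The precision is lowest for *Emcn*, *Tek* and *Tie1*, which had the fewest counts.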
